A study of Mus musculus with 8 samples.

Results

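The globin family and the alpha globin chaperone Ahsp were read through 10 probe sets of the Affymetrix mouse array Mouse430_2, chosen by their IDs out of 45101 on the array. Gene names follow the Affymetrix annotation given with the IDs, since the deposited tables carry IDs alone. IDs are written here after the array's name and a point. Of these probe sets, 3 read adult alpha globin, namely Hba-a1 A (Mouse430_2.1417714_x_at), Hba-a1 B (Mouse430_2.1428361_x_at) and Hba-a1/a2 (Mouse430_2.1452757_s_at), the last shared by Hba-a1 and Hba-a2. Adult beta globin, Hbb-b1 and Hbb-b2 together, has 1 (Mouse430_2.1417184_s_at), and so has Ahsp (Mouse430_2.1449077_at). The embryonic globins are read by Hba-x (Mouse430_2.1448716_at), Hbb-y A (Mouse430_2.1436717_x_at), Hbb-y B (Mouse430_2.1436823_x_at), Hbb-bh1 A (Mouse430_2.1437810_a_at) and Hbb-bh1 B (Mouse430_2.1450736_a_at). The letters A and B only tell apart probe sets of one gene. The IDs of Hba-a1/a2 and adult beta end in _s_at, the Affymetrix mark for probes shared by several transcripts. Those of Hba-a1 A, Hba-a1 B, Hbb-y A and Hbb-y B end in _x_at, the mark for probes that can bind other transcripts, so near-identical globin copies cannot be separated here.

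RNA came from whole blood of mice, drawn from the vena cava. The mice behind the 4 control samples lived at room condition. Those behind the 4 hypoxia samples were conditioned in a closed chamber whose oxygen content went from 21% to 8% over 14 days at normal pressure, and were bled after 15 days. RNA was taken from 100 µl of blood in control and from 500 µl in hypoxia, so blood volume and group cannot be told apart. The labels give neither strain, age nor sex. Nor do they state that every array stands for its own mouse, and the spread behind each p-value may be partly technical.

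Haemoglobin is a tetramer of a pair of alpha-like and a pair of beta-like chains, each carrying a heme. In the mouse the embryonic chains, zeta from Hba-x and epsilon-y and beta-h1 from Hbb-y and Hbb-bh1, are made mainly by the primitive red cells of the yolk sac and give way to the adult chains in definitive red cells. Ahsp binds free alpha chains and keeps them from precipitating until they meet a beta chain. Mature mammalian red cells have no nucleus, and most of their remaining RNA is lost as reticulocytes, the youngest circulating red cells, mature, so globin mRNA in blood comes largely from reticulocytes. In blood as a whole, a change in the number of such cells and a change in RNA per cell cannot be told apart.

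The upstream sequences of 4 of these genes are shown because adult and embryonic members were read side by side. They are the 120 bases before the annotated start, 5′ to 3′ on the gene's strand, from RefSeq on GRCm38.p6. Capitals mark matches, searched on both strands. The motifs were CACCC, the erythroid factor box, then CCAAT, a box found in many promoters, then TATAAA, the core promoter box, and lastly a GATA site, which is the letters GATA with A or T before them and A or G after them. These matches do not overlap one another in the windows shown. Hba-a1 lies at chr11:32283552-32283671 on the plus strand, Hba-x at chr11:32276480-32276599 on the plus strand, Hbb-bs at chr7:103827929-103828048 on the minus strand and Hbb-y at chr7:103853208-103853327 on the minus strand. Hbb-bs is an adult beta gene of the reference strain C57BL/6J, which carries the pair Hbb-bs and Hbb-bt where other strains carry Hbb-b1 and Hbb-b2.
Hba-a1: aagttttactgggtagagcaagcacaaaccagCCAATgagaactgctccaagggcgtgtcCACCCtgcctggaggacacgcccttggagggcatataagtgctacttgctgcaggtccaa
Hba-x: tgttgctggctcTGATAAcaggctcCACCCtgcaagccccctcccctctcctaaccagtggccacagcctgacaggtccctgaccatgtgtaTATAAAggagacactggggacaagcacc
Hbb-bs: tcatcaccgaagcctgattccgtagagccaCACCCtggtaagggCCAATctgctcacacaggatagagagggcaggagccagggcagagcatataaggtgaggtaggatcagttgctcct
Hbb-y: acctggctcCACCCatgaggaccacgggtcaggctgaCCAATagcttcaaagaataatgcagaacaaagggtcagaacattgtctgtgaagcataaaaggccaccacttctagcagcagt

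All 4 windows hold a CACCC match, the motif bound by KLF1 and related factors, and 31.7% of 32851 mouse promoter windows of the same length hold one too. The longer form CCACACCC, which contains it, was in the Hbb-bs window, from base -93 to base -86 before the start, and in 1.84% of all windows. CCAAT was in the Hba-a1, Hbb-bs and Hbb-y windows and in 21.3% of all. A GATA match stood in the Hba-x window alone of these 4, against 12.8% of all windows, and so did TATAAA, which 6.34% of all windows hold. The window of the adult beta gene Hbb-bt, not shown, also held TATAAA, at bases -28 to -23. Only these exact letters were searched, so variants of the box were not counted. These are matches of letters and no evidence of binding. The promoter entries of Hba-a1 and Hba-a2, 300 bases each, share an unbroken run of 297 bases, whereas the longest shared run of Hbb-bs and Hbb-bt is 14 bases.

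On the arrays, Ahsp and the embryonic beta-like globin Hbb-y rose in hypoxia, and the adult globins did not pass the test on the deposited scale. By limma, adjusted over 45037 probe sets, 3 of the 10 globin and Ahsp probe sets were called higher and 0 lower, where 3.65% of all probe sets were called higher and 2.60% lower. The 3 were Ahsp, Hbb-y A and Hbb-y B. No member had a negative change on the deposited scale, so 0 were lower at an unadjusted p under 0.05 too. In 7 of the 10, the 4 hypoxia values all lay above the 4 control values, as they did in 10.5% of all probe sets. The median change of the 10 was 1.30 log2 units, beside 0.19 for all probe sets and 1.43 for the 50 brightest on the control arrays. It was 1.27 after centring on Actb, 0.95 after centring on the array median, 0.73 after quantile normalization and 0.36 relative to the hybridization controls described below.

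**Figure D1:**
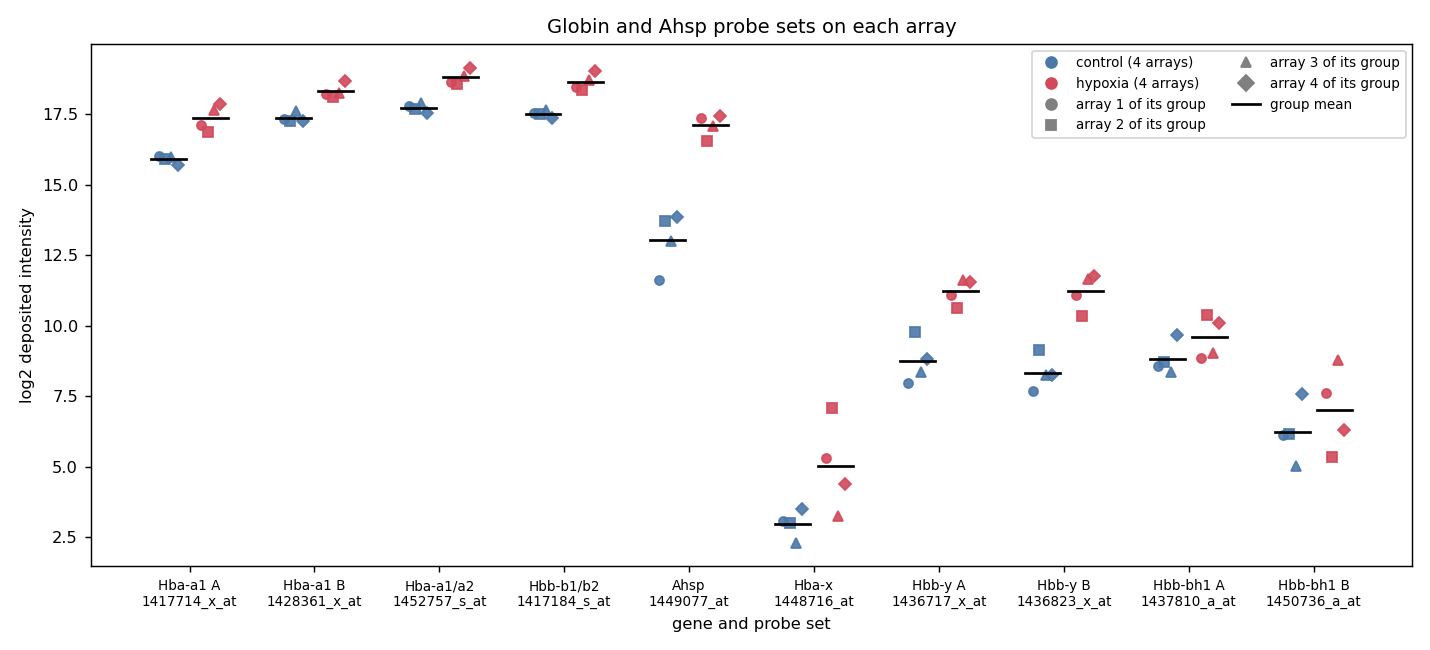
Log2 of the deposited intensity (y axis) of each globin and Ahsp probe set (x axis) on the 4 control and 4 hypoxia arrays, 1 point per array, with group means as bars. Group means differ by 4.06 log2 units at Ahsp, by 2.49 and 2.88 at Hbb-y A and B, and by 0.94 to 1.46 at the adult globins. The closest arrays of the 2 groups lie nearer, as at Hbb-y A with 9.79 in control 2 and 10.62 in hypoxia 2. The Hbb-bh1 points of both groups overlap.

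Array scaling bears on every one of these values. All arrays were scaled to a trimmed mean of 500, and the median intensity was 163 to 202 on control and 230 to 245 on hypoxia arrays. The hybridization controls are bacterial and phage transcripts added in fixed amounts to each sample, and their log2 mean was higher by 0.94 (SE 0.17) on the hypoxia arrays, or 1.92-fold, at an exact permutation p of 0.0286, the smallest that 4 against 4 arrays allow. Centring on those controls left 1.32% of all probe sets called higher and 13.6% called lower, against 2.72% and 2.36% after quantile normalization. Of the 10 members, 2 were called higher under the former and 3 under the latter, with 0 lower under either. All hypoxia values lay above all control values in 4 of the 10 with those controls and in 3 after quantile normalization, where 1 lay wholly below, against 7 as deposited, 7 with the array median and 7 with Actb. That share over all probe sets was counted as deposited alone, where 10.5% lay wholly above and 10.5% wholly below. The member counts under the other scalings thus have no share to be read against. Over all probe sets tested the median difference moved from 0.19 to -0.74 with those controls, to -0.15 with each array's median and to 0.17 with Actb as the centre. Each change is therefore given on the deposited scale and relative to those controls.

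Ahsp had the steepest rise of the set. Its intensities were 3143, 13489.5, 8189 and 14756 on control arrays 1 to 4 and 167422, 95949, 139753 and 174751 on hypoxia arrays 1 to 4. The lowest hypoxia array thus lay far above the highest control array, and control 1 was the lowest of its group. On the log2 scale the level went from 13.05 ± 1.02 to 17.10 ± 0.39 (SD, n = 4 each), a change of 4.06 (SE 0.56, limma adjusted p = 0.0131). That is a 16.6-fold rise with a 95% interval of 6.88 to 40.2, and the 96th largest rise among the 45037 probe sets tested.

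The rise of Ahsp passed the same test under every scaling tried. Relative to the hybridization controls it was 3.12 (SE 0.59, adjusted p = 0.0150), after centring each array on its median 3.71 (adjusted p = 0.0231), after centring on Actb 4.03 (adjusted p = 0.0120) and after quantile normalization 3.10 (adjusted p = 0.0250). With 1 array left out it ran from 3.58 to 4.32, and the adjusted p stayed between 0.0196 and 0.0474. Ahsp was higher by 3.14 log2 units with a q-value of 0% in the authors' deposited table, whose log2 differences are not those of the intensities used here. A q-value under 5% with a rise was given there to 20.6% of the 19916 probe sets listed.

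Among the embryonic genes Hbb-y rose at both of its probe sets. For Hbb-y A the control intensities were 248, 885, 329 and 450.2 and the hypoxia intensities 2178, 1578, 3177 and 2985, so the groups did not overlap. For Hbb-y B they were 208, 567, 302 and 306 in control and 2165, 1303, 3193 and 3502 in hypoxia, again without overlap. Control 2 was the highest control and hypoxia 2 the lowest hypoxia array at both.

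The log2 level of Hbb-y A went from 8.73 ± 0.79 to 11.22 ± 0.47 (SD, n = 4 each), a change of 2.49 (SE 0.50, limma adjusted p = 0.0294) or 5.63-fold, with a 95% interval of 2.56 to 12.4. At Hbb-y B it went from 8.34 ± 0.60 to 11.21 ± 0.65 (SD, n = 4 each), a change of 2.88 (SE 0.49, limma adjusted p = 0.0194) or 7.34-fold, with a 95% interval of 3.40 to 15.8. These Hbb-y signals stood above 50.9% to 84.5% of tested probe sets on control arrays and above 90.1% to 95.9% on hypoxia arrays.

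Relative to the hybridization controls the changes of Hbb-y were 1.55 (adjusted p = 0.0825) at Hbb-y A and 1.94 (adjusted p = 0.0326) at Hbb-y B, so the call at Hbb-y A was lost under that scaling. With 1 array left out, the adjusted p of Hbb-y A was 0.0348 to 0.0817 and passed in 2 of 8 cases, those without control 2 or hypoxia 2. That of Hbb-y B was 0.0208 to 0.0606 and missed without control 1, control 3 or hypoxia 3. The authors' deposited table listed 2.49 for Hbb-y A and 2.93 for Hbb-y B, both with a q-value of 0%. Both are of the _x_at kind, and the share of their signal from other beta-like transcripts was not tested.

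Hbb-bh1, the other embryonic beta-like gene, showed no call. At Hbb-bh1 A the intensities were 380.1, 415, 323 and 804 in control and 465, 1325, 522 and 1103 in hypoxia, and control 4 lay above 2 of the hypoxia arrays. Its log2 change was 0.78 (SE 0.51, limma adjusted p = 0.376), with a 95% interval from -0.38 to 1.94. At Hbb-bh1 B the intensities were 70.3, 72.2, 32.3 and 191 in control and 195, 40.7, 438 and 77.9 in hypoxia. The change there was also 0.78 (SE 0.83, limma adjusted p = 0.600), with an interval from -1.12 to 2.68, wide enough to hold both a fall and a rise as large as that of Hbb-y A. With 1 array left out the change ran from 0.52 to 1.06 at Hbb-bh1 A and from 0.19 to 1.33 at Hbb-bh1 B.

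The 2 probe sets of Hbb-bh1 ordered the hypoxia arrays differently. Hypoxia 2 was the highest of the group at Hbb-bh1 A and the lowest at Hbb-bh1 B, and hypoxia 3 was the highest at Hbb-bh1 B. Their log2 ratio on one array ranged from 0.25 to 5.02 within hypoxia and from 2.08 to 3.32 within control. Relative to the hybridization controls both changes were near 0 and negative, at -0.16 for each. In the authors' deposited table Hbb-bh1 A stood at 0.31 with a q-value of 19.8%, and Hbb-bh1 B was not among the probe sets listed.

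Hba-x, the embryonic alpha-like gene, was at the dim end of the array. Its intensities were 8.50, 7.90, 4.93 and 11.3 in control and 39.3, 136, 9.48 and 21.1 in hypoxia. At most 10.1% of tested probe sets were dimmer on any control array, and in hypoxia 2, the brightest, 34.2% were. The log2 change of 2.04 (SE 0.78, limma adjusted p = 0.148, exact permutation p = 0.0571) missed the threshold, hypoxia 3 lay below control 4, and with 1 array left out the change ran from 1.34 to 2.63. At this brightness the size also depended on the offset added before the logarithm, with a change of 1.14 at an offset of 16 and 0.42 at an offset of 100. Relative to the hybridization controls it was 1.10 (adjusted p = 0.446).

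The adult globins were close to the top of every array. Adult alpha Hba-a1/a2 was the brightest tested probe set on 7 of 8 arrays, with intensities of 227775, 209619, 242337 and 190391 in control and 408735, 392485, 468844 and 578973 in hypoxia. For adult beta they were 189115, 185505, 206023 and 168721 in control and 364873, 334043, 428065 and 533219 in hypoxia. The groups did not overlap at either.

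As deposited, Hba-a1/a2 differed by 1.08 log2 units (SE 0.34, limma adjusted p = 0.0919), adult beta by 1.13 (SE 0.34, adjusted p = 0.0841), Hba-a1 B by 0.94 (SE 0.34, adjusted p = 0.129) and Hba-a1 A by 1.46 (SE 0.37, adjusted p = 0.0559). These differences of 1.92-fold to 2.76-fold each had an exact permutation p of 0.0286, unadjusted. The spread between arrays was small, with an SD of 0.12 to 0.16 in control and 0.25 to 0.47 in hypoxia on the log2 scale. In limma with a trended and robust prior, which lets the variance depend on brightness, all 4 passed, with adjusted p from 1.36e-05 to 0.000267. They also passed with an offset of 100 added before the logarithm and with dim probe sets left out. Calls widened over all probe sets too under these settings. Of 45037, 3123 were called higher and 3713 lower with the trended prior, and 3476 and 3639 with the offset. With dim probe sets left out, 2877 and 3341 of 23411 were, against 1643 and 1173 of 45037 without any of these settings. These passes were thus not particular to the adult globins.

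These adult differences were close to the 0.94 of the hybridization controls, Hba-a1 A excepted. Relative to those controls they were 0.14 for Hba-a1/a2 (exact permutation p = 0.200), 0.19 for adult beta (exact p = 0.0857), 0.00 for Hba-a1 B (exact p = 0.971) and 0.52 for Hba-a1 A (exact p = 0.0286). These exact p-values are unadjusted. By limma none was called on that scale, with an adjusted p of 0.392 for Hba-a1 A and 0.778 or more for the others. After centring on the array median the adult differences were 0.60 to 1.12 and after centring on Actb 0.91 to 1.44, with limma adjusted p of 0.0889 to 0.316. The groups did not overlap at any of the 4, but such separation was not counted over all probe sets on these scales. Quantile normalization sets a value from its rank on the array alone, so probe sets at the top of every array are held close to 0 by the method. Hba-a1/a2 was at rank 1 or 2 and adult beta at rank 2 to 5 on every array, and they stood at 0.03 and -0.08 on that scale, which measures no change in their amount. Hba-a1 B went from rank 4 on every control array to rank 10 to 27 in hypoxia, a difference of -0.40 with all hypoxia values below the controls (exact permutation p = 0.0286, limma adjusted p = 0.478). Hba-a1 A stood at -0.02 (exact p = 0.971, adjusted p = 0.982). The authors' deposited table gave -0.01 for Hba-a1/a2, -0.08 for adult beta, 0.01 for Hba-a1 B and 0.15 for Hba-a1 A, with q-values of 17.9% to 23.7%. The size of the adult globin differences thus depended on the scaling, and among the scalings run here the sign turned under quantile normalization alone, at 3 of the 4.

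Within hypoxia, all 4 adult probe sets put the arrays in the same order, hypoxia 2 lowest, then 1, then 3, then 4 highest. The brightest of the 64 control probe sets, 18 of which are hybridization controls, had that order too. In control, Hba-a1/a2 and adult beta shared the order of that probe set as well. The intensity of Hba-a1 B was 31.3% to 33.8% of the brightest control probe set in control and 28.2% to 35.8% in hypoxia, so the groups overlapped on this measure. For Hba-a1/a2 it was 37.9% to 45.5% in control and 42.7% to 49.5% in hypoxia. For adult beta it was 32.2% to 38.2% and 39.0% to 42.1%, with the hypoxia arrays just above. Ahsp went from between 0.628% and 3.16% to between 12.1% and 18.4%.

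**Figure D2:**
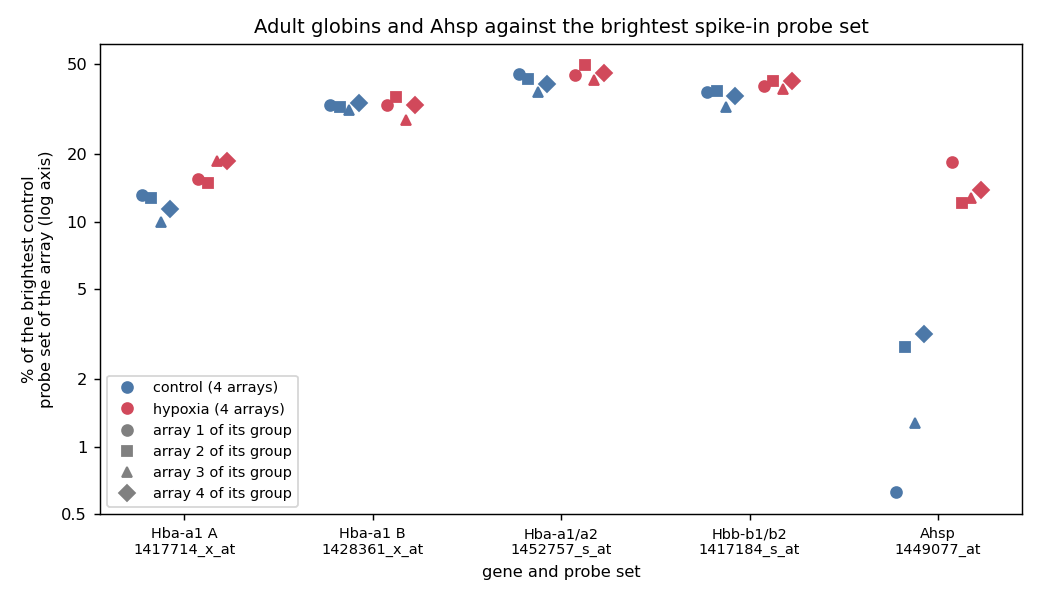
Intensity of the adult globin and Ahsp probe sets (x axis) as a percentage of the brightest of the 64 control probe sets on the same array (y axis, log scale), 1 point per array. The 3 brightest globin probe sets stay between 28.2% and 49.5% in both groups, Hba-a1 A goes from at most 13.1% to at least 14.9%, and Ahsp from at most 3.16% to at least 12.1%.

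Saturation of these bright probe sets was not tested, since the files hold no flag for it. Of the 10 tested probe sets brightest on the control arrays, 3 were adult globins, and the median change of the 10 was 1.22 log2 units as deposited. Among the 50 brightest, which include the same 3, 27 were called higher and 0 lower, with a median change of 1.43. After quantile normalization the medians were -0.02 for the 10 and 0.01 for the 50. A difference of this size as deposited was thus not particular to the adult globins. Hba-a1 A, the dimmest adult alpha probe set with rank 74 to 159 on control arrays, had the largest change of the 3. Its log2 ratio to Hba-a1/a2 differed between the groups by 0.39 (SE 0.13) and its log2 ratio to Hba-a1 B by 0.52 (SE 0.17), both at the smallest exact permutation p of 0.0286 (adjusted p = 0.0607 across the 17 within-array ratios computed). After quantile normalization these differences were -0.04 and 0.38. Probe sets assigned to one gene thus gave different sizes of change.

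**Figure D3:**
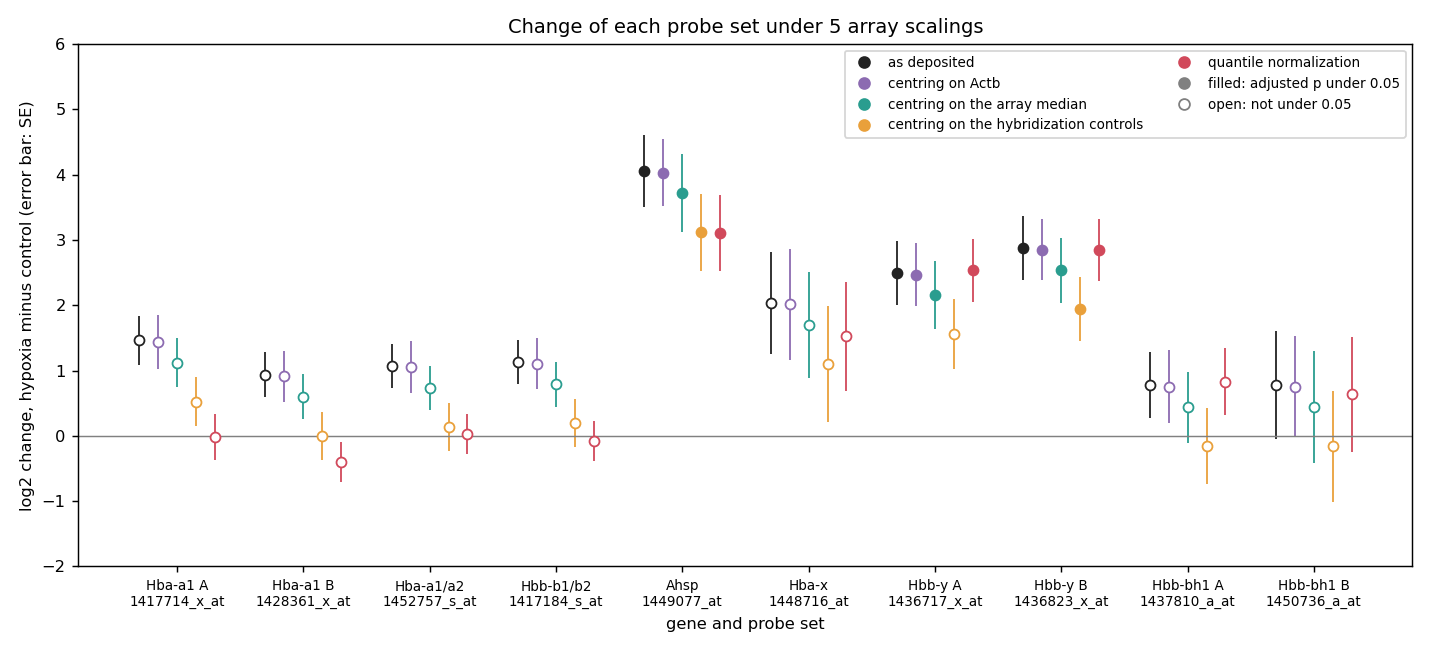
Log2 change, hypoxia minus control, of each globin and Ahsp probe set (x axis) as deposited and under 4 other scalings, with SE from limma as bars and filled points for an adjusted p under 0.05. Ahsp and Hbb-y B are filled under all 5, Hbb-y A under 4, and the adult globins lie at 0.60 to 1.44 under the centrings on Actb and the array median and at 0.00 to 0.52 under the hybridization controls. Under quantile normalization rank holds the brightest of them near 0.

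Ratios between probe sets of one array do not depend on a linear scaling of the array, and show unequal change. With 4 arrays a group and 17 ratios, 0 passed an adjusted p of 0.05 by the exact permutation test, and 8 reached its smallest raw p of 0.0286 with an adjusted p of 0.0607. Over 17 ratios, that smallest p falls under an adjusted 0.05 only if more than 8 ratios reach it. Missing the threshold was therefore largely set by the number of arrays and ratios, and says little about a single ratio.

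In each of the 4 ratios of Ahsp to an adult globin, the hypoxia arrays all lay above the control arrays. Its log2 ratio to adult beta was -5.91, -3.78, -4.65 and -3.52 in control and -1.12, -1.80, -1.61 and -1.61 in hypoxia. The difference was 2.93 (SE 0.56, exact permutation p = 0.0286, adjusted p = 0.0607), or 7.61-fold, with an exact 95% interval of 1.72 to 4.78 log2 units. Against the 3 adult alpha probe sets it was 2.59 to 3.12, with the same p-values. Without any 1 array the ratio to adult beta stayed between 2.45 and 3.24.

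Adult beta was set against each of the 3 adult alpha probe sets. The log2 ratio of adult beta to Hba-a1/a2 averaged -0.21 ± 0.05 in control against -0.16 ± 0.05 in hypoxia (SD, n = 4 each), a difference of 0.05 (SE 0.03, exact permutation p = 0.171) with an exact 95% interval of -0.05 to 0.14. Against Hba-a1 B it was 0.19 (SE 0.07, exact p = 0.0571) and against Hba-a1 A -0.33 (SE 0.11, exact p = 0.0286, adjusted p = 0.0607). After quantile normalization it was 0.32 (exact p = 0.0286) against Hba-a1 B and -0.06 (exact p = 0.771) against Hba-a1 A. Against Hba-a1/a2, where rank holds both probe sets, it was -0.11 (exact p = 0.171). Rank holds adult beta on that scale, so the 0.32 largely repeats the change of Hba-a1 B itself there (-0.40). The quantile values thus give no separate measure of beta against alpha. As deposited, the sign of the difference varied with the alpha probe set. None of the 3 passed the adjusted threshold, which no ratio at the smallest exact p passed either.

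Hbb-y, set against adult beta, was separated at 1 of its 2 probe sets as deposited. The log2 ratio of Hbb-y B to adult beta was -9.83, -8.35, -9.42 and -9.11 in control and -7.40, -8.00, -7.07 and -7.25 in hypoxia, so control 2 and hypoxia 2 were closest but did not cross. The difference was 1.75 (SE 0.37, exact permutation p = 0.0286, adjusted p = 0.0607), with an exact 95% interval of 0.36 to 2.76. For Hbb-y A it was 1.36 (SE 0.44, exact p = 0.0571, adjusted p = 0.0971), and control 2 at -7.71 lay just above hypoxia 2 at -7.73. Without control 2 the groups at Hbb-y A did not overlap (1.72, exact p = 0.0286). With 1 array left out the Hbb-y A difference ran from 1.10 to 1.72, and only that 1 case of 8 had an exact p under 0.05. Without hypoxia 1, 3 or 4 its exact p was 0.0857. The Hbb-y B difference ran from 1.53 to 2.02, with an exact p of 0.0571 without hypoxia 1, 3 or 4. After quantile normalization, which holds adult beta near its rank, the differences were 2.61 for Hbb-y A and 2.93 for Hbb-y B (exact p = 0.0286 each). They largely repeat the changes of Hbb-y itself on that scale, 2.54 and 2.85, and give no separate measure against adult beta. The ratio of Hbb-bh1 A to adult beta differed by -0.35 (SE 0.53, exact p = 0.514) and that of Hba-x to Hba-a1/a2 by 0.96 (SE 0.95, exact p = 0.486). With 1 array left out they ran from -0.71 to -0.02 and from 0.19 to 1.56. Whether Hbb-y and Hbb-bh1 differ in these ratios was not tested.

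**Figure D4:**
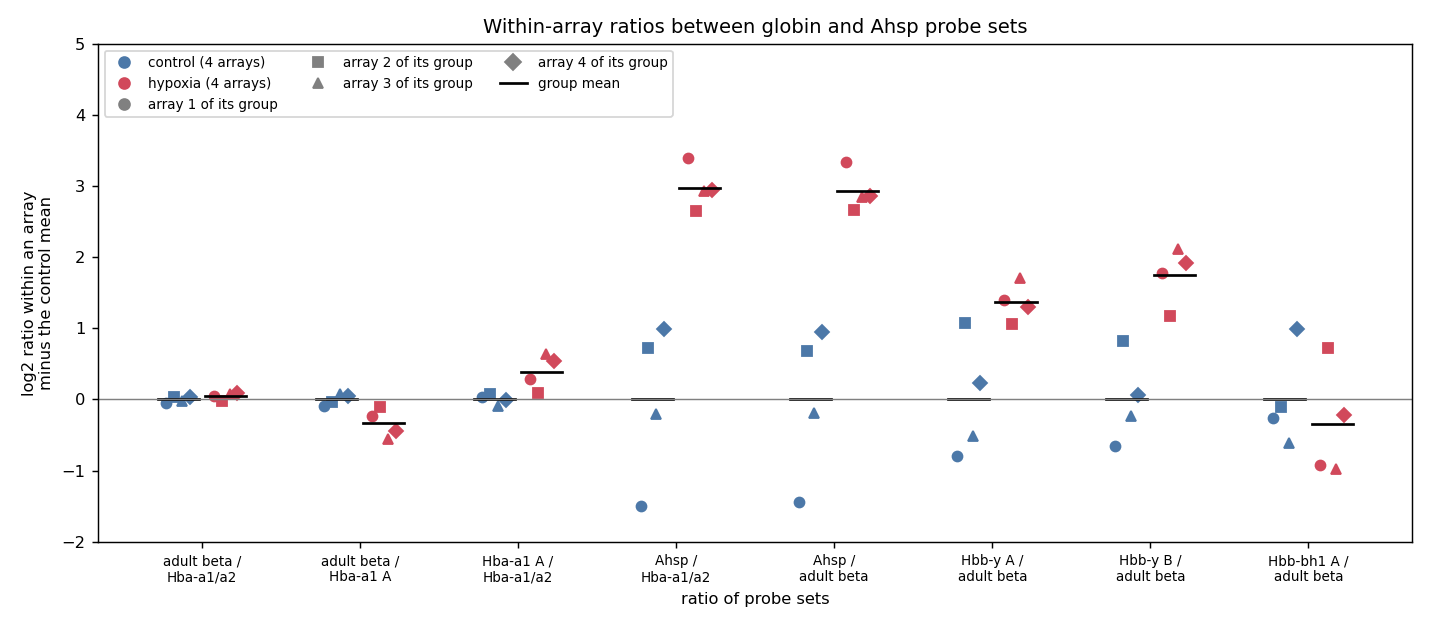
Log2 ratio between 2 probe sets of the same array minus the control mean of that ratio (y axis) for 8 of the 17 ratios (x axis), 1 point per array and bars for group means. The Ahsp ratios differ by 2.93 and 2.98 between group means, the Hbb-y ratios by 1.36 and 1.75, and the ratio of adult beta to Hba-a1/a2 by 0.05.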

How the data were processed

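Whole-blood RNA, 4 samples per group, was hybridized to 1-colour arrays after oligo(dT)-primed 1-cycle labelling, per the labels' protocols. The deposited value table holds linear intensities for 45101 probe sets. GCRMA, RMA and Partek appear in the submitters' processing notes with no role, so the step behind these values stays unstated here. The mean without the outer 2% on each side was 500 on every array. The authors' deposited table of a SAM comparison gives, per the file headers, a score, a fold ratio, a signed fold, a log2 difference and a q-value in percent for 19916 probe sets besides controls, and it was described only.

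Intensities under 1 (14 values) were raised to 1 before log2 was taken. The 64 control probe sets were left out. The other 45037 went into limma 3.58.1 under R 4.3.3 (constant prior, no covariate, Benjamini-Hochberg adjustment), the source of each adjusted p not named otherwise. Single values and ratios were tested by the two-sided exact permutation test over the 70 splits of 8 arrays, with adjustment over the 17 ratios. The number of arrays limits precision. The members, ratios, motifs and lists were chosen with earlier results of these data known. All 10 members were named. Lists of other erythroid genes, globin regulators and blood cell markers, and the search for genes of like pattern, were not run, because the tables used here pair no other probe set with a gene. The blood cell makeup was therefore not checked beyond the globins. Alternatives were quantile normalization and 3 centrings, offsets of 16 and 100, a filter on dim probe sets, a trended robust prior, array weights, a replicate block and each array left out.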

Additional observations from a re-analysis of the deposited data

Results flagged for a closer look

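Dixon's test was applied to 54 groups of 4 values, and 1 group had an array apart from its other 3, where chance gives about 2.7. In it the log2 ratio of Hba-a1 B to Hba-a1/a2 was -0.60 in hypoxia 3, against -0.47 to -0.45 on the other hypoxia arrays.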

How the results depend on the processing

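Of all probe sets 1643 were called higher and 1173 lower as deposited. The calls higher were 593 after centring on the hybridization controls, 1074 on Actb, 3476 with an offset of 100 and 3123 with a trended robust prior. With the dim filter they were 2877 of the 23411 probe sets tested there. The calls lower were 6129 and 408 after the same centrings, 2433 on the array median and 1908 and 3639 with offsets of 16 and 100. With the filter they were 3341 of the same 23411, and with the trended prior 3713. Leaving out 1 array gave 384 to 1367 higher and 76 to 1250 lower, with both counts more than 1.5 times smaller without any array but hypoxia 2. Signs turned under quantile normalization for Hba-a1 A (-0.018), Hba-a1 B (-0.40) and adult beta (-0.078), and under centring on the hybridization controls for Hbb-bh1 A and B (-0.16 each). An offset of 100, the filter and the trended prior each brought the adult changes past the threshold at 1.46 (Hba-a1 A, also with an offset of 16), 0.94 (Hba-a1 B), 1.08 (Hba-a1/a2) and 1.13 (adult beta). Hbb-y A at 1.55 lost its call with the hybridization controls, and leaving out 1 array gave 2.23 to 2.85 for it and 2.66 to 3.16 for Hbb-y B. Among the ratios, quantile normalization turned adult beta over Hba-a1/a2 (-0.11), Hba-a1 A over Hba-a1/a2 (-0.045), Hbb-bh1 A and B over adult beta (0.91 and 0.71) and Hbb-bh1 A over B (0.20). An offset of 100 turned the last (0.21) and Hba-x over Hba-a1/a2 (-0.66). With 1 array left out, Hbb-bh1 B over adult beta ran from -0.92 to 0.15 and Hbb-bh1 A over B from -0.81 to 0.78. The cause was not tested. The labels do not state whether same-numbered arrays were handled together. Their deviations correlated at -0.018 to 0.0064, and 0 of 8 correlated best with its own number, which does not settle it. With the number as a replicate block, limma called 0 higher and 0 lower (5951 and 4397 at an unadjusted p under 0.05), and the changes of Ahsp (4.06), Hbb-y A (2.49) and Hbb-y B (2.88) had adjusted p of 0.125, 0.131 and 0.126. Counts over other gene lists were not run. Array number limits precision, and Hba-x was too dim for a firm level.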
